A study of Saccharomyces cerevisiae with 4 samples.

Results

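Cell wall synthesis was followed in budding yeast (Saccharomyces cerevisiae) through 10 genes, chosen by name for their roles: the Pir protein genes PIR1 (YKL164C), HSP150 (YJL159W), PIR3 (YKL163W) and CIS3 (YJL158C), the glucan genes GAS1 (YMR307W), FKS1 (YLR342W) and GSC2 (YGR032W), and the chitin synthase genes CHS1 (YNL192W), CHS2 (YBR038W) and CHS3 (YBR023C). They were proposed as a set with the ratios of these arrays known, among them the swing of PIR1 between dye orientations, so their values are given as a description. Where they are counted in a fit over all genes, nothing is read from the count. Of the 10 genes, 9 are among the 5500 reading frames of the value table. Of these, PIR1, HSP150, PIR3, CHS1 and CHS3 have values on all 4 arrays, FKS1 on 3 and CHS2 on 1, and CIS3 and GSC2 have none. GAS1 was not analysed here.

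Polyadenylated RNA of a strain named bre1 was hybridised with wild-type RNA on 4 2-colour arrays, which form 1 group of ratios. The bre1 RNA carried Cy5 and the wild-type RNA Cy3 on arrays 2 and 4, and the dyes were exchanged on arrays 1 and 3. BRE1 encodes the ubiquitin ligase that marks histone H2B. The labels give neither the kind of bre1 mutation, the strain background, the growth conditions, nor the number of cultures behind the arrays, so p-values reflect array-to-array spread that may be technical only.

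The yeast wall is a net of beta-1,3-glucan, which is made at the plasma membrane, with branches of beta-1,6-glucan, a smaller amount of chitin and an outer coat of mannoproteins. Pir proteins, named for their internal repeats, are secreted mannoproteins that attach to beta-1,3-glucan through those repeats. Fks1 and Gsc2 are alternative catalytic subunits of beta-1,3-glucan synthase, and Gas1 joins and lengthens the glucan chains. Of the chitin synthases, Chs2 lays down the primary septum during division, Chs3 makes the chitin ring of the bud neck and most chitin of the lateral wall, and Chs1 repairs the wall as the daughter cell parts.

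How the ratios run matters for genes that differ between dyes, and the values themselves bear on it. As linear ratios to base 2, 100% of the values of arrays 2 and 4 as deposited fell on whole multiples of a single step per array (0.000923 and 0.00102), to within 0.05 of a step. On arrays 1 and 3 the same held for 100% of the values after they were inverted (steps of 0.00109 and 0.00106). In the opposite orientation, or read to base 10 or as natural logs, 9.3% to 15.1% of values fell on a best step. The deposited values are therefore log2 ratios, and those of arrays 1 and 3 were inverted relative to those of arrays 2 and 4 after the ratios had been rounded, so that all 4 arrays run the same way between the strains. The steps do not say which strain is on top. With bre1 named first in the sample descriptions, bre1 was put on top here, and BRE1 is then low (log2 ratios of -1.65 on array 1 and -3.17 on array 3, with no value on arrays 2 and 4). The direction is thus likely rather than certain, BRE1 having been seen in a single dye orientation. On this reading the rounded ratio was Cy5 over Cy3 on each array.

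Among the Pir genes, PIR1 had the widest spread. Its log2 ratios were -2.12 and -2.28 on arrays 2 and 4, where bre1 RNA carried Cy5, against 1.72 and 1.19 on arrays 1 and 3, where bre1 RNA carried Cy3. The arrays of each orientation lay close together, the orientations did not overlap and their signs were opposite. In folds, the PIR1 ratio was 4.35-fold and 4.87-fold below 1 on arrays 2 and 4, and 3.30-fold and 2.28-fold above 1 on arrays 1 and 3. Written as Cy5 over Cy3, with bre1 on top, its log2 values were -1.72, -2.12, -1.19 and -2.28 on arrays 1 to 4. On this reading the deposited ratio favoured the Cy3 channel on every array, whichever strain it held. On arrays 2 and 4, 0.197% and 0.109% of all measured reading frames had a lower ratio than PIR1, and on arrays 1 and 3, 99.2% and 98.9% did. The mean over the 4 arrays was -0.37 ± 2.12 (SD, n = 4), and its sign turned when array 2 or array 4 was left out (0.21 and 0.26). No direction between bre1 and wild type can be read for PIR1 from these arrays.

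**Figure D1:**
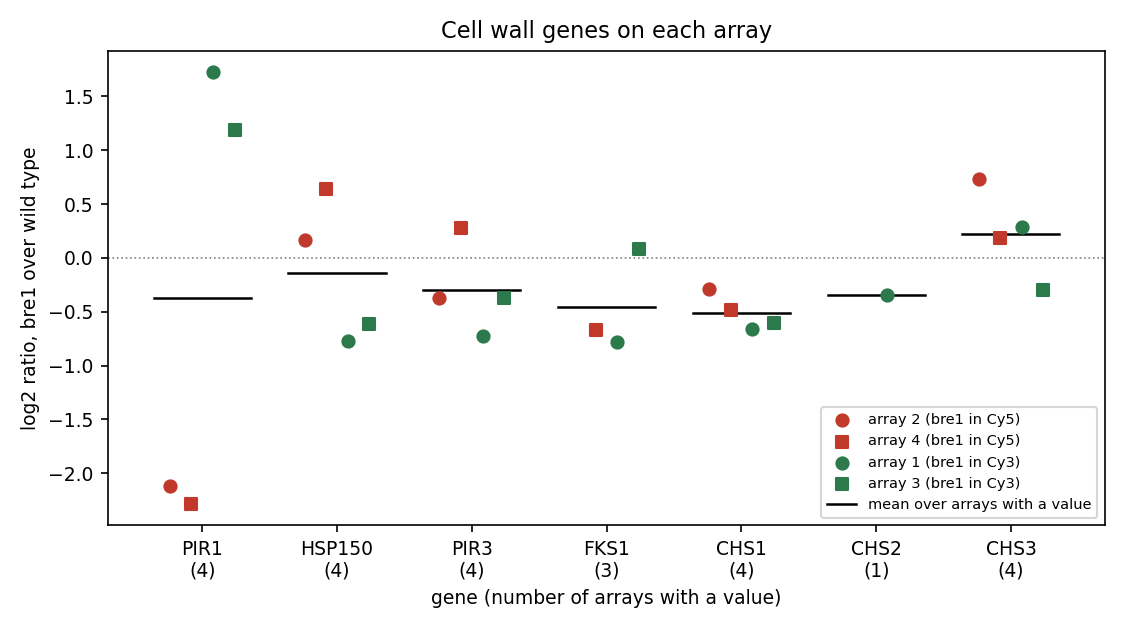
Log2 ratio of bre1 over wild type (vertical axis) for the 7 genes with at least 1 value, by array; red marks the arrays with bre1 in Cy5, green those with bre1 in Cy3, and the black line is the mean over the arrays with a value. The PIR1 values lie at -2.12 and -2.28 in red and at 1.72 and 1.19 in green, while each CHS1 value lies below 0.

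HSP150, which encodes a secreted, heat-inducible Pir protein, differed between orientations in the opposite sense. Its log2 ratios were 0.17 and 0.64 on arrays 2 and 4, against -0.77 and -0.61 on arrays 1 and 3. The orientations again did not overlap and had opposite signs. With bre1 on top, the deposited ratio favoured the Cy5 channel on all 4 arrays. The mean was -0.14 ± 0.67 (SD, n = 4), smaller than the spread, and it crossed 0 without array 1 (0.07) or array 3 (0.01).

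PIR3 lies next to PIR1 on chromosome XI, and the names of the reading frames place the 2 genes on opposite strands. Its log2 ratios were -0.37 and 0.28 on arrays 2 and 4, against -0.73 and -0.37 on arrays 1 and 3. It was below 0 on 3 arrays and above 0 on array 4, with a mean of -0.30 ± 0.42 (SD, n = 4) that lay at -0.15 without array 1 and at -0.49 without array 4. The PIR3 ratios did not swing as those of its neighbour did. CIS3, the neighbour of HSP150 on chromosome X, has no value. Pir genes share repeat sequence, so that probes may read more than a single member; how far they do is not known here.

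Of the glucan genes, FKS1, the main glucan synthase gene of growing cells, had a log2 ratio of -0.67 on array 4, against -0.78 and 0.08 on arrays 1 and 3. It was low on arrays 1 and 4 and close to 0 on array 3, with a mean of -0.45 ± 0.47 (SD, n = 3) that lay at -0.29 without array 1 and at -0.72 without array 3. With no value on array 2, the orientation with bre1 in Cy5 rests on a single array. GSC2, whose product takes part in spore wall formation and is induced under wall stress, had no value.

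Among the chitin synthase genes, CHS1 kept 1 sign on all 4 arrays, CHS3 had values of both signs and CHS2 had 1 value. CHS1 had log2 ratios of -0.28 and -0.48 on arrays 2 and 4, against -0.66 and -0.61 on arrays 1 and 3. All 4 values were below 0, and the mean of -0.51 ± 0.17 (SD, n = 4), 1.42-fold lower in bre1, had the smallest SD among the 5 genes with values on all arrays. Without any single array the mean stayed between -0.58 and -0.46. CHS3 had log2 ratios of 0.74 and 0.18 on arrays 2 and 4, against 0.29 and -0.30 on arrays 1 and 3. It was above 0 on 3 arrays and below 0 on array 3, with a mean of 0.23 ± 0.43 (SD, n = 4), and its orientations overlapped. The CHS3 mean lay at 0.06 without array 2 and at 0.40 without array 3. CHS2 had a log2 ratio of -0.34 on array 1 alone.

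Set against the whole table, none of the 5 genes with values on all arrays passed an adjusted p under 0.05 in the limma fit of the mean ratio over 3840 genes, where 10.7% of all genes passed. At an unadjusted p under 0.05 there was 1, CHS1, beside 1150 of all 3840 genes in the fit with a robust variance prior. CHS1 passed the adjusted threshold in limma with a dye term (0.0259), with arrays centred (0.0414) and with array weights (0.0416). Those settings also called more genes over the whole table, 897, 467 and 685, against 410 in the main fit. The median of the mean log2 ratios of the 5 genes was -0.30, beside 0.02 over all genes tested. Of the 5, CHS1 alone had 1 sign on all 4 arrays, as did 35.7% of all genes. Since the set was proposed with these ratios known, nothing is read from these counts, and 5 of the 10 genes entered none of them.

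The difference between dye orientations, taken as the mean log2 ratio with bre1 in Cy5 minus that with bre1 in Cy3, was -3.66 for PIR1. That was the third largest in size among 3840 genes, the median size being 0.34. For HSP150 it was 1.10, for PIR3 0.51, for CHS3 0.47 and for CHS1 0.25. Without single arrays it ranged from 0.18 to 0.83 for PIR3, from 0.17 to 0.76 for CHS3 and from 0.15 to 0.35 for CHS1, and with arrays centred it was 0.12 for CHS1. PIR1 thus ran against the other 4 genes, and against the median difference of all genes, 0.14. Arrays of the 2 orientations did not overlap for 4 of the 5 genes (all but CHS3), and did not for 52.4% of all genes. For PIR3 they nearly touched, at -0.369 on array 2 and -0.374 on array 3. Opposite signs in the 2 orientations were seen for PIR1 and HSP150, and for 14.9% of all genes. In a limma fit with a dye term, PIR1 was the 1 gene of the 5 past an adjusted p under 0.05, where 0.104% of all genes (4 of 3840) passed. The PIR1 swing was part of the choice of genes and is not evidence for itself.

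**Figure D2:**
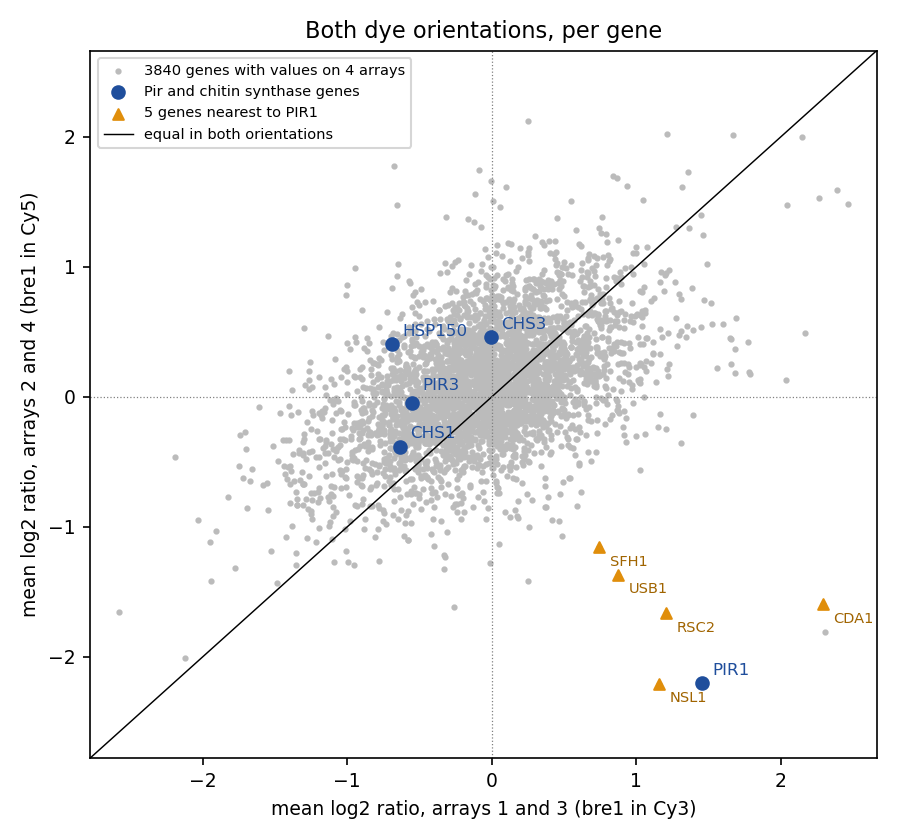
Mean log2 ratio of arrays 2 and 4 (bre1 in Cy5, vertical axis) against that of arrays 1 and 3 (bre1 in Cy3, horizontal axis) for 3840 genes (grey), the Pir and chitin synthase genes with values on all arrays (blue) and the 5 genes nearest to PIR1 (orange). PIR1 lies far below the line of equal values, at -2.20 against 1.46, and HSP150 lies above it, at 0.41 against -0.69.

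The 5 genes whose 4 ratios lay closest to those of PIR1, by Euclidean distance over the 4 arrays, were RSC2 (distance 0.85), NSL1 (0.89), USB1 (1.70), CDA1 (1.70) and SFH1 (2.04). RSC2 and SFH1 encode subunits of the RSC chromatin remodeller, NSL1 a kinetochore protein, USB1 an enzyme that trims the end of U6 RNA, and CDA1 a chitin deacetylase of the spore wall. Each had negative ratios on arrays 2 and 4 and positive ratios on arrays 1 and 3. RSC2 had log2 ratios of -1.62 and -1.71 on arrays 2 and 4, against 1.58 and 0.84 on arrays 1 and 3. CDA1 had -0.90 and -2.28 on arrays 2 and 4, against 2.49 and 2.09 on arrays 1 and 3. Closeness over 4 arrays is a description.

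**Figure D3:**
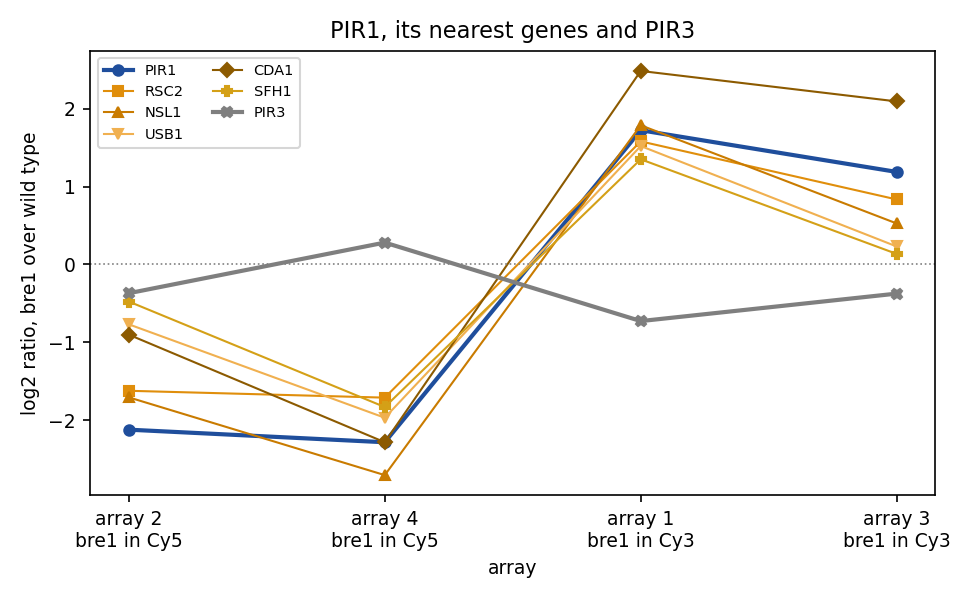
Log2 ratio of bre1 over wild type (vertical axis) on each array (horizontal axis) for PIR1 (blue), the 5 genes nearest to it (orange to brown) and its chromosomal neighbour PIR3 (grey); lines join values of 1 gene. PIR1 and its nearest genes are below 0 on arrays 2 and 4 and above 0 on arrays 1 and 3, and PIR3 is at -0.37, 0.28, -0.73 and -0.37 in the order of the axis.

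Other genes of the wall were taken from 4 lists, chosen with earlier results of these data known, so counts over them are a description. Of 24 further genes of beta-glucan synthesis and remodelling, 17 had values on all arrays. None passed the limma test of the mean ratio at an adjusted p under 0.05. At an unadjusted p under 0.05 there were 3, beside 1150 of all 3840 genes with a robust variance prior. The median log2 ratio of the 17 was -0.22, beside 0.02 over all genes tested, and 12 of the 17 means were below 0. The smallest p-values were those of EXG1, the major exo-glucanase of the wall, at -0.51 and -0.08 on arrays 2 and 4, against -1.93 and -1.54 on arrays 1 and 3 (mean -1.02 ± 0.87, SD, n = 4, limma adjusted p = 0.056), and of KRE6, needed for beta-1,6-glucan, with a mean of -0.60 ± 0.50 (SD, n = 4, limma adjusted p = 0.0873). EXG1 was below 0 on each array, lower in each array with bre1 in Cy3. It passed in 4 of the alternatives tried, among them the fit without array 4 (limma adjusted p = 0.00806), and KRE6 passed without array 4 (0.0187), with a dye term (0.0266) and with array weights (0.0388).

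Most tested genes of chitin metabolism outside the synthases passed in neither direction. Of 20 genes of chitin synthase delivery, precursor supply, cross-linking and breakdown, 11 were tested. Of these, 9 did not pass, 1 rose and 1 fell, beside 5.89% and 4.79% of all genes that rose and fell. The median log2 ratio was 0.17. CHS5, which is needed to carry Chs3 to the cell surface, rose 1.55-fold. Its log2 ratios were 0.88 and 0.52 on arrays 2 and 4, against 0.79 and 0.35 on arrays 1 and 3 (mean 0.64 ± 0.24, SD, n = 4, limma adjusted p = 0.038). CTS1, the chitinase that dissolves the septum, fell 2.51-fold. Its log2 ratios were -0.53 and -0.40 on arrays 2 and 4, against -2.34 and -2.05 on arrays 1 and 3 (mean -1.33 ± 1.01, SD, n = 4, limma adjusted p = 0.038). CHS5 was above 0 on each array and its orientations overlapped, whereas CTS1 was below 0 on each array with no overlap between orientations. CDA1, described above among the genes nearest to PIR1, is also 1 of the 11 and had a mean of 0.35 ± 2.32 (SD, n = 4) that lay below 0 without array 1 (-0.36) or array 3 (-0.23). It was the 1 gene of this list past the threshold of the dye term, where 0.104% of all genes passed, with a dye difference of -3.88 (limma adjusted p = 0.0243).

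Several other wall protein genes fell. Of 13 genes listed, proteases that act on wall proteins among them, 9 were tested, and all 9 means were below 0. Of the 9, 4 fell and none rose, beside 4.79% of all genes that fell. The list having been chosen with earlier results known, nothing is read from these counts. Their median log2 ratio was -0.65, beside 0.02 over all genes tested. CWP1, a mannoprotein linked to beta-1,6-glucan, fell 2.15-fold. Its log2 ratios were -1.28 and -0.35 on arrays 2 and 4, against -1.52 and -1.26 on arrays 1 and 3 (mean -1.10 ± 0.52, SD, n = 4, limma adjusted p = 0.0205). ECM33, a surface protein needed for the outer mannoprotein layer, fell 1.98-fold (adjusted p = 0.0369), TIP1, a mannoprotein induced by cold, 1.79-fold (0.0354), and YPS1, a surface aspartic protease, 1.65-fold (0.0338). All 4 genes, named because their mean over these arrays passed the test, were below 0 on every array. Of all genes, 35.7% had 1 sign on all 4 arrays. Over the 9 genes the median log2 ratio was -0.83 and -0.27 on arrays 2 and 4, against -1.14 and -0.45 on arrays 1 and 3.

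The integrity pathway, in which surface sensors, protein kinase C and a MAP kinase cascade drive wall genes, had a median near 0. Of 17 genes of the pathway and of transcription factors that act on wall genes, 10 were tested. None passed in limma, and 2 had an unadjusted p under 0.05, beside 1150 of all 3840 genes with a robust variance prior. The median log2 ratio was -0.02, beside 0.02 over all genes tested, with 5 of the 10 means below 0. The smallest p-values belonged to the sensor genes WSC2, with a mean log2 ratio of -0.68 ± 0.59 (SD, n = 4, limma adjusted p = 0.0814), and WSC3, with -0.42 ± 0.42 (SD, n = 4, limma adjusted p = 0.163). Both were below 0 on arrays 1 to 3 and close to 0 on array 4, and WSC2 passed without array 4 (limma adjusted p = 0.0177), with a dye term (0.0338) and with array weights (0.0365).

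**Figure D4:**
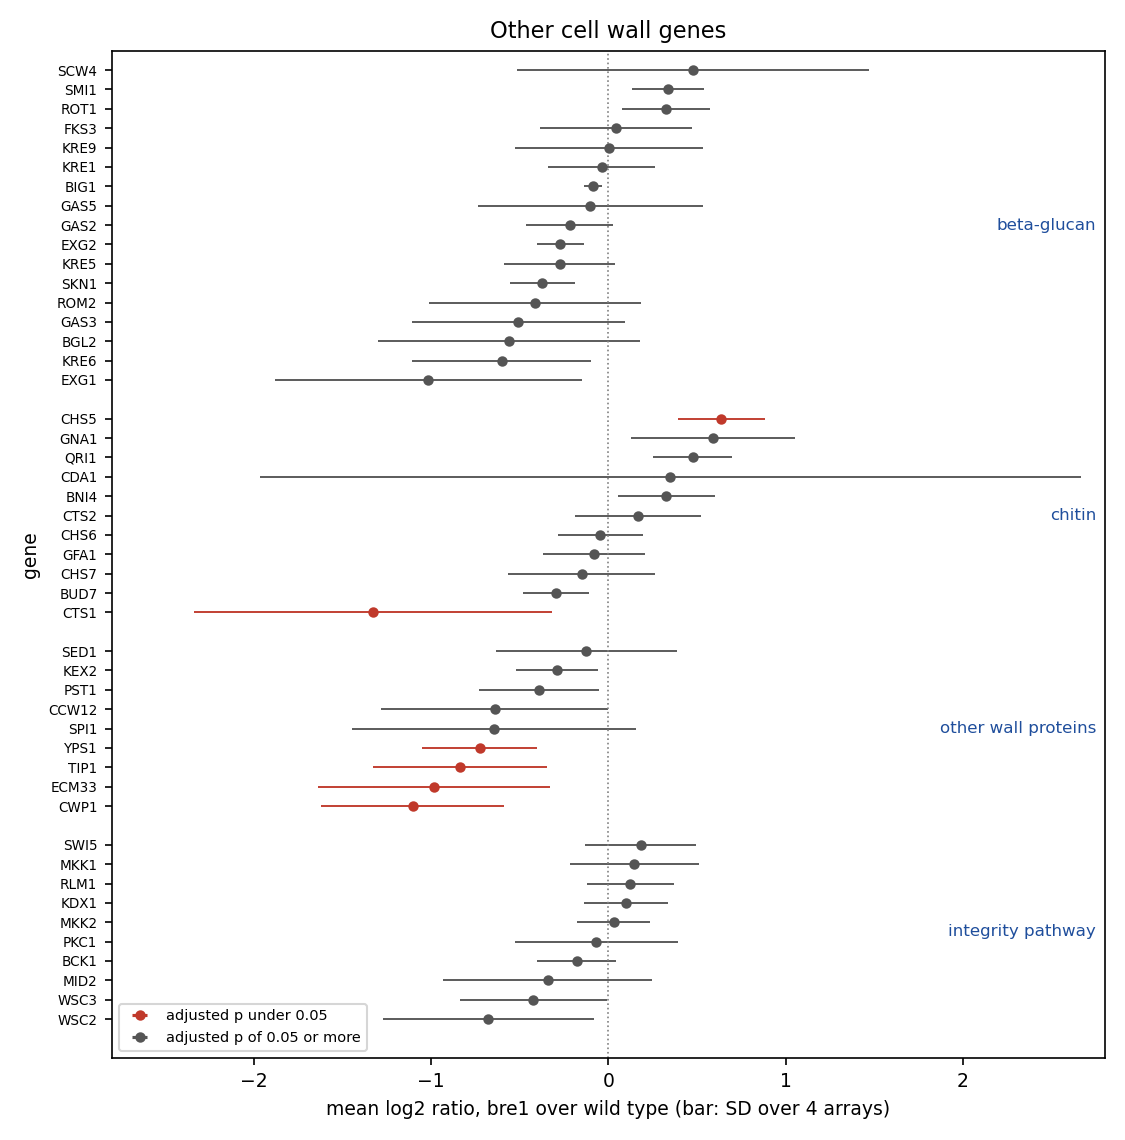
Mean log2 ratio of bre1 over wild type with its SD over 4 arrays (horizontal axis) for the tested genes of the 4 further lists (vertical axis); red marks an adjusted p under 0.05 in limma's fit over all genes. The red points are CHS5 above 0, and CTS1, YPS1, TIP1, ECM33 and CWP1 below 0.

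The calls of CHS5, CTS1, CWP1, ECM33, TIP1 and YPS1 were each lost without array 1, without array 2 and without array 3, with adjusted p between 0.0522 and 0.165, and each held without array 4. No gene of the table passed without array 2 (815 had an unadjusted p under 0.05).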

How the data were processed

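The deposited table gave 1 log2 ratio per reading frame and array, as the authors made it; how the background was corrected, spots filtered and values normalized was not given in the sources used here. The base and relative orientation were read from the rounding of the values. If each array was scaled to a common centre, a shift shared by all transcripts is invisible. Scanner intensities were not used, dim spots could not be filtered, and precision is limited by having 4 arrays.

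Of 5500 frames, 3840 had values on all 4 arrays and were tested, 1186 had values on 1 to 3 and 474 had none. A gene table of assembly R64 gave names, with 30 frames unmatched, and neighbours. Genes were fitted in R 4.3.3 with limma 3.58.1 (lmFit on an intercept, eBayes, two-sided, Benjamini-Hochberg over 3840 genes, threshold 0.05). The intercept fit leaves differences between dye orientations in the residual spread. A second fit added a dye term, which takes them out. The mean and dye terms of the second fit were tested on simulated data.

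The genes and lists were chosen with earlier results of these data known. Genes named are BRE1, the 10 wall genes, per list up to 5 past the threshold by size of mean or else the 2 with the smallest p, and the 5 nearest to PIR1. Other names were chosen after their values were seen. Alternatives left out each array, centred arrays, added a dye term, array weights or a robust variance prior, or took genes with at least 3 values.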

Additional observations from a re-analysis of the deposited data

How the results depend on the processing

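The count of all genes past the threshold was 410, lay between 0 and 677 when single arrays were left out, and was 897 with a dye term and 685 with array weights. No Pir, glucan or chitin synthase gene passed when any array was left out, and 1, CHS1, passed with arrays centred, with a dye term and with array weights (1 in each). The glucan list had 0 calls and between 0 and 4 without single arrays, 1 with arrays centred, 3 with a dye term, 2 with array weights and 1, SCW11, among genes with values on at least 3 arrays. The chitin list had 2, between 0 and 3 without single arrays and 4 with a dye term. The wall protein list had 4, between 0 and 5 without single arrays and 6 with a dye term. The integrity pathway list had 0, between 0 and 2 without single arrays, 1 with a dye term and 1 with array weights. Dye term calls over all genes numbered 4, and between 9 and 156 without single arrays, where the lone array of an orientation is assumed to vary like the others; those among the Pir and chitin synthase genes numbered 1 and between 1 and 2, the added gene being HSP150 without array 2. The cause of these changes was not tested. The median of the 5 genes stayed between -0.41 and -0.15, and their dye differences kept their signs without single arrays and with arrays centred, the alternatives run for them. The means of EXG1, KRE6, CTS1, CHS5, CWP1, ECM33, TIP1, YPS1, WSC2 and WSC3 kept their signs under each alternative. Each ratio already pairs bre1 with wild type on 1 array, and no pairing between arrays was used.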

Other observations

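Of the 5 genes nearest to PIR1, 4 (RSC2, USB1, CDA1 and SFH1) have systematic names of the right arm of chromosome XII, which holds 306 of the 3840 tested genes (7.97%). Among the 10 genes with the largest dye difference in size, 5 lie on that arm, although the median dye difference of its genes was 0.15, close to the 0.14 of all genes. RSC2, USB1 and CDA1 are in both counts, so the counts are not separate observations. Both were noticed after the values were seen and were not tested. The 4 genes past the threshold of the dye term, also named after their values were seen, were PIR1, CDA1 and RSC2, lower with bre1 in Cy5, and RPL10 of the large ribosomal subunit, at 1.59 and 1.96 on arrays 2 and 4, against -0.48 and -0.88 on arrays 1 and 3.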
